A study of Mus musculus with 6 samples.

Results

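The phagocyte NADPH oxidase is the enzyme with which macrophages and neutrophils make superoxide against ingested microbes. Transcripts of 7 of its genes were followed here: Cybb and Cyba, which encode the membrane flavocytochrome subunits gp91phox and p22phox, Cybc1, which encodes a chaperone of that flavocytochrome, Ncf1 and Ncf4, which encode the cytosolic subunits p47phox and p40phox, and Rac1 and Rac2, which encode the small GTPases that complete the active complex. The genes were chosen by symbol. All 7 were found among the 54532 rows of the expression table, and all 7 were among the 8882 genes abundant enough to be tested, with a mean of at least 1 FPKM (fragments relative to gene model length and library size).

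In a resting phagocyte, the flavocytochrome sits in the membrane without making superoxide, and the cytosolic subunits stay apart from it. Once fungal cell wall sugars engage receptors such as the Dectins, p47phox is phosphorylated, the cytosolic subunits move to the membrane, and Rac loaded with GTP joins them. Electrons then pass from NADPH through gp91phox to oxygen. Loss of gp91phox, p22phox, p47phox, p40phox or the chaperone causes or is linked to chronic granulomatous disease, in which patients suffer from fungal and bacterial infections.

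RNA sequencing was done on macrophages of 3 wild type (WT) libraries, numbered 1, 2 and 3, and of 3 libraries lacking progranulin (PGRN KO), numbered 4, 5 and 6. Grn is the gene of progranulin, a glycoprotein that cells secrete. As the labels describe them, C57BL/6J macrophages taken from the peritoneal cavity were kept in DMEM with serum, plated at 2000000 cells per well and then exposed to Candida albicans, a fungal pathogen, at 1 fungal cell per macrophage for 6 hours. A figure legend of the study gives another ratio of fungal cells to macrophages for this sequencing. The sample titles call WT the control. By the labels all 6 libraries received the fungus, so that genotypes were compared without a baseline. The methods of the study describe bone marrow-derived macrophages, state that PGRN KO mice came from the Jackson Laboratory and WT mice from a local breeder, and do not give the age of the mice used for these libraries. Genotype and breeder therefore cannot be told apart. Nothing in the labels says whether the 3 libraries of a genotype came from separate animals, so that p-values measure the spread between these libraries, which may be technical.

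The libraries held 15996786 to 17551619 counted fragments, and each member was covered by at least 698 fragments in every library. The targeted gene matched the labels: Grn stood at 323, 337 and 325 FPKM in the WT libraries, and its 3 PGRN KO values were 0.0166, 0 and 0.0167 FPKM. PGRN KO replicate 6 stood apart from the other libraries. Its log2 values correlated with PGRN KO replicates 4 and 5 at 0.971 and 0.972, while those replicates correlated with each other at 0.992, and its deviation from the mean of all libraries fell with gene length (Spearman correlation over genes -0.471, against 0.151 to 0.243 in the other 5 libraries). PGRN KO replicates 4 and 5 correlated with the WT libraries at 0.967 to 0.974. By this measure replicate 6 lay about as far from replicates 4 and 5 as these lay from WT. Genes are not independent replicates, and these correlations are descriptions. Differences of the members between genotypes are given with and without replicate 6. All 19 genes called in the lists further on were also called without it, in a setting that called 3668 genes against 2151. Of the 19, 6 remained called without each WT replicate in turn. Markers shared by macrophages were abundant, with a summed level over 8 genes of 11620 to 12560 FPKM over the WT libraries and 10440 to 14380 over the PGRN KO libraries. Of these 8, Csf1r was lower (mean FPKM 32.5 for WT, 24.7 for PGRN KO, adjusted p = 0.0178 by limma) and Mertk higher (1.41 and 3.24, adjusted p = 0.00640), and 6 did not pass. Among 6 markers of resident peritoneal macrophages, Gata6 (mean FPKM 3.95 for WT, 4.50 for PGRN KO, not called) and Icam2 (3.10 and 5.10, higher in PGRN KO, adjusted p = 0.00914) were above the filter, and Timd4, Selp, Alox15 and Rarb were at means under 0.15 FPKM in both genotypes.

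To see whether the machinery for superoxide differed between genotypes under fungal challenge, the 7 members were compared with limma on log2(FPKM + 1), with p-values adjusted over all tested genes and a threshold of 0.05. Transcripts of Cyba were higher in PGRN KO than in WT, and the other 6 members did not pass the test. Thus 1 of 7 members was called, and it was higher. Over all tested genes 24.2% were called, 10.4% as higher and 13.8% as lower in PGRN KO. Without PGRN KO replicate 6, 3 of 7 members were called: Cyba was higher, and Ncf4 and Rac2 were lower. That setting called 41.3% of all tested genes, 16.2% as higher and 25.1% as lower. The groups of 3 libraries did not overlap for 2 members, Cyba and Cybc1, and they did not overlap for 48.8% of all tested genes. These shares of 7 members were near those of all tested genes or below them, and nothing about the members as a group is read from them. With all libraries, unweighted and uncorrected, no member was called lower by limma, and 0 were lower at an unadjusted p under 0.05. The same held for voom, a form of limma for counts. With all libraries kept, limma with sample weights called 2 members lower. It called 1 lower with a correction for gene length, and 1 with a correction for length and GC content. Over all 8882 tested genes these settings called 2468, 1518 and 1597 lower, in that order. Of all called genes 42.8% were higher, a share that became 60.3% when each library was rescaled to the same sum and 62.9% when library size was taken as the fragments counted. The median log2 fold change of the members was -0.11, beside -0.03 over all tested genes.

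**Figure D1:**
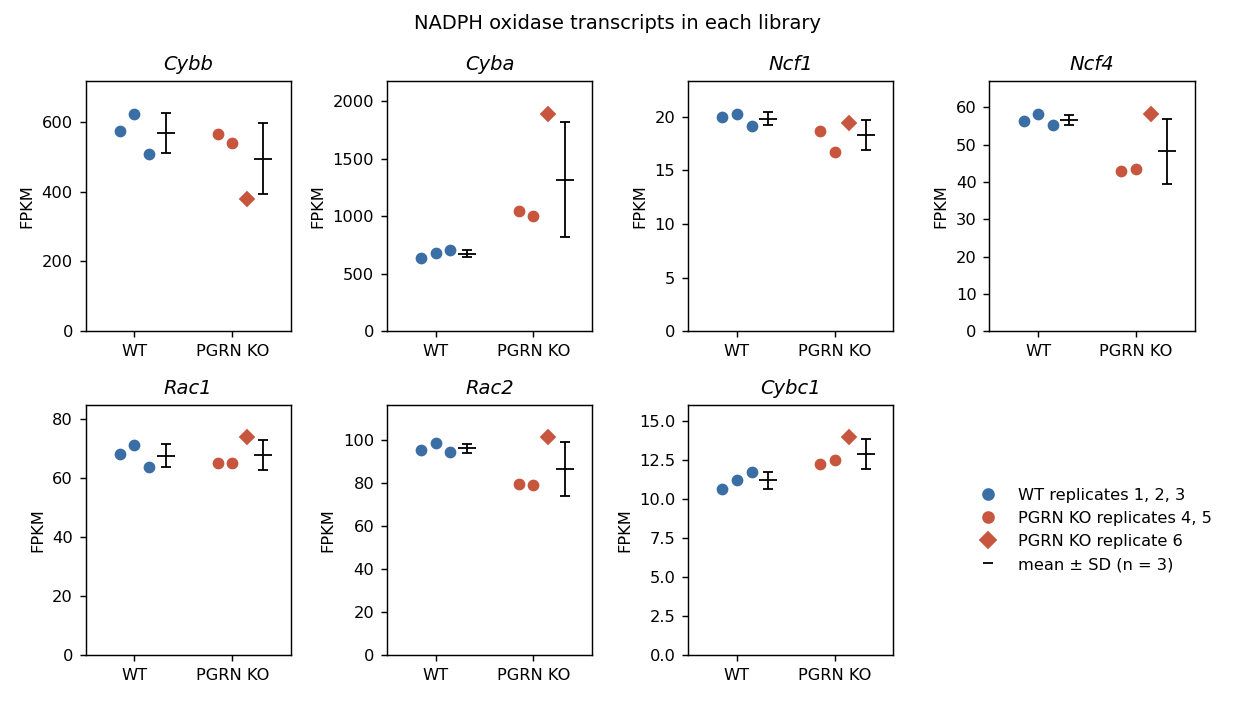
Level of each member in each library, in FPKM, with 1 panel per member on its own axis from 0, WT and PGRN KO libraries side by side and PGRN KO replicate 6 as a diamond (bars give the mean ± SD, n = 3). Cyba ranged from 639 to 704 FPKM over the WT libraries, and from 1006 to 1893 FPKM over those of PGRN KO, whereas the libraries of both genotypes overlapped for 5 of the other 6 members.

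Levels per gene length spread over a wide range and kept 1 order in both genotypes. Cyba was highest, followed by Cybb, Rac2, Rac1, Ncf4, Ncf1 and Cybc1, and in neither genotype did the ranges of neighbours in this order overlap. The place of Rac1 is less certain, since part of its model overlaps another gene and how reads there were counted is not given. That of Cyba above Cybb rests on the division by gene model length. In WT, FPKM ranged from 639 to 704 for Cyba down to 10.7 to 11.7 for Cybc1. Transcripts of the membrane subunits were thus far above those of the cytosolic subunits measured here, with Cybb at 508 to 623 FPKM and Ncf1 at 19.2 to 20.3 FPKM in WT.

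Cyba encodes p22phox, the small membrane subunit that holds gp91phox stable and offers the docking site for p47phox. It lies on chromosome 8 (122424776 to 122432930, minus strand, GRCm38, ENSMUSG00000006519) and has the shortest gene model of the members, 1039 bases. Of the stretches of 31 bases in the Cyba model, 7.39% are shared with other genes, 4.21% with Rc3h2. Gm20388, on the opposite strand, overlaps the Cyba locus by 8155 bases and was listed at a mean of 0 FPKM. How reads there were counted is not given. The WT libraries had 639, 683 and 704 FPKM of Cyba. PGRN KO replicates 4, 5 and 6 had 1049, 1006 and 1893 FPKM. Every PGRN KO library was above every WT library, and replicate 6 was far above the other PGRN KO libraries. Mean levels were 675 ± 33.3 FPKM for WT against 1316 ± 500 for PGRN KO (SD, n = 3 each), a ratio of means of 1.95. The log2 fold change was 0.90 ± 0.24 (SE, 95% interval 0.33 to 1.47), with an adjusted p of 0.0374 by limma. Without replicate 6 the ratio of means was 1.52, and the log2 fold change was 0.61 ± 0.06 (95% interval 0.45 to 0.76, adjusted p = 0.00139).

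The Cyba call rested on few libraries. The adjusted p rose to 0.127, 0.112 and 0.0970 when WT replicate 1, 2 or 3 was left out, to 0.0522 without PGRN KO replicate 4, and to 0.118 when all genes in the table with reads entered the adjustment. It was 0.0390 without PGRN KO replicate 5. The direction was the same in all 19 alternatives, with log2 fold changes of 0.61 to 1.06, and 14 of these passed the threshold.

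Cybb encodes gp91phox, the catalytic subunit that carries the electrons from NADPH to oxygen. It lies on the X chromosome (9435252 to 9487771, minus strand, ENSMUSG00000015340) with a gene model of 5808 bases. The WT libraries had 572, 623 and 508 FPKM of Cybb, against 565, 540 and 378 in PGRN KO. PGRN KO replicates 4 and 5 lay within the WT range, and replicate 6 lay below it. Mean levels were 568 ± 57.8 FPKM for WT against 494 ± 101 for PGRN KO (SD, n = 3 each). The log2 fold change of -0.22 (SE 0.18, 95% interval -0.63 to 0.20) did not pass the test (adjusted p = 0.394). Without replicate 6 it was -0.04 (95% interval -0.26 to 0.19, adjusted p = 0.789), and none of the 19 alternatives passed. Since Cybb is on the X chromosome, sex markers were checked: Xist was at 0 to 0.00377 FPKM and the Y-linked Ddx3y was present in all 6 libraries, at 8.16 FPKM in PGRN KO replicate 6 against 11.7 to 13.6 FPKM in the others. The Y-linked Uty and Kdm5d were also lowest in replicate 6, and Eif2s3y was highest there (11.6 FPKM against 9.39 to 10.9 FPKM).

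The proteins gp91phox and p22phox form a pair in the membrane, and their transcripts were therefore set against each other within each library, where the scaling of the library cancels. The ratio of Cyba to Cybb FPKM was 1.12, 1.10 and 1.39 in WT replicates 1, 2 and 3. It was 1.86, 1.86 and 5.01 in PGRN KO replicates 4, 5 and 6. Cyba exceeded Cybb in FPKM in every library, and the genotypes did not overlap. That Cyba was above Cybb rests on division by gene model length, since Cybb had more counted fragments in each library. These were 55615 against 11106 in WT replicate 1, and 37947 against 33998 in PGRN KO replicate 6. Among single tested genes, 48.8% did not overlap between genotypes. The mean log2 ratio was 0.25 ± 0.19 in WT and 1.37 ± 0.82 in PGRN KO (SD), and the difference of 1.12 had an exact permutation p of 0.1 (two-sided), the smallest that 3 against 3 libraries allow, and 0.2 after adjustment over 4 ratios. Without replicate 6 the difference was 0.64.

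Promoters of Cybb, Ncf1 and Cyba are shown as a description. Binding of PU.1 and of interferon regulatory factors to promoter elements is a known route of myeloid expression of oxidase genes. Any link of these sequences to the genotype was not tested. The stretches run from 180 bases before to 20 bases after the RefSeq start (GRCm38.p6, 5′ to 3′ on the strand of the gene). Capitals mark matches, on either strand, to a PU.1 core (GAGGAA), a core of the interferon-stimulated response element (GAAA and GAAA with 2 free bases between) or an Ets-IRF composite element (GGAA and GAAA with 2 free bases between).
Cybb, chrX:9469305-9469504, minus strand: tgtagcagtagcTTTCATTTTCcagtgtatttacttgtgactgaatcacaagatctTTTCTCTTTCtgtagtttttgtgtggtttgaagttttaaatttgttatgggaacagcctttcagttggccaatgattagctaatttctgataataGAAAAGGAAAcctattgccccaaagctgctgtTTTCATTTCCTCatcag
Ncf1, chr5:134229606-134229805, minus strand: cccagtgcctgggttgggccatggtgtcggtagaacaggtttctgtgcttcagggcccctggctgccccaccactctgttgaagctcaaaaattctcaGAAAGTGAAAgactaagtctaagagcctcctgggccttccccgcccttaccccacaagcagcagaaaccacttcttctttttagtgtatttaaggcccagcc
Cyba, chr8:122432921-122433120, minus strand: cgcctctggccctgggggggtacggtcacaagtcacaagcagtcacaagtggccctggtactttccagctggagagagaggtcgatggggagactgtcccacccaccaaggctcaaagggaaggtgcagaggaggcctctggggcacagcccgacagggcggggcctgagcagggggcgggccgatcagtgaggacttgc

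The Cybb stretch held 3 cores of the response element, with first bases at -168, -124 and -29 from the start, and 1 composite element at 4 that overlapped a PU.1 core at 10. The Ncf1 stretch held 1 core of the response element at -82 and 1 GC box (GGGCGG, on the opposite strand) at -42. No match to the 3 capitalised motifs was found in the Cyba stretch, which held 2 GC boxes at -24 and -6. Among 32851 RefSeq promoter windows running from 250 bases before to 50 after a start, 3.4% held the core of the response element, 2.7% the composite, 28.3% the PU.1 core and 35.7% the GC box. A match is a description of the letters and was not tested as a binding site. Windows were matched for 4 of the 7 members. Cybc1, the fourth, had 2 windows, of which 1 held a PU.1 core at -184, and neither held the other motifs named here. Ncf4, Rac1 and Rac2 were not matched.

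Cybc1 encodes a chaperone in the endoplasmic reticulum without which the gp91phox protein is not stably made. It lies on chromosome 11 (121222588 to 121229322, minus strand, ENSMUSG00000039294). Cybc1 was the least abundant member, with 10.7, 11.2 and 11.7 FPKM in the WT libraries against 12.2, 12.5 and 14.0 in PGRN KO. Each PGRN KO library was above each WT library, by a narrow margin. The log2 fold change was 0.19 ± 0.09 (SE, 95% interval -0.03 to 0.40), which did not pass the test (adjusted p = 0.171), nor did it in any of 19 alternatives. Without replicate 6 it was 0.13 (adjusted p = 0.129). The ratio of Cybc1 to Cybb FPKM was 0.0187, 0.0180 and 0.0231 in WT and 0.0217, 0.0231 and 0.0370 in PGRN KO, with overlapping genotypes (log2 difference 0.42, exact permutation p = 0.3, adjusted p = 0.4). Without replicate 6 that difference was 0.18.

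**Figure D2:**
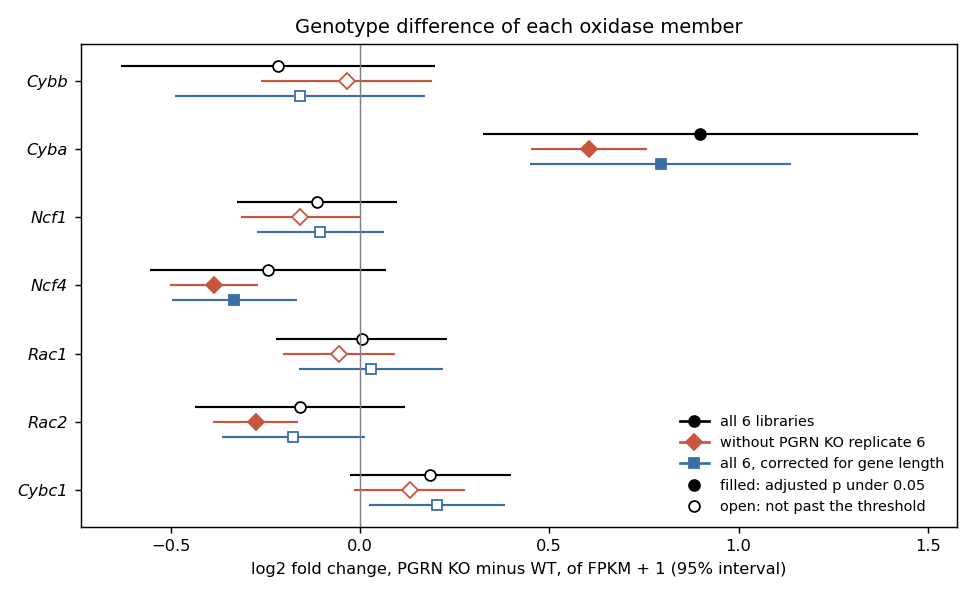
Log2 fold change of FPKM + 1 in PGRN KO against WT for each member, with 95% intervals from limma. Shown are all 6 libraries, the libraries without PGRN KO replicate 6, and all 6 libraries corrected for gene length. With all libraries and no correction the interval lies away from 0 for Cyba alone. Without replicate 6 the estimates are 0.61 for Cyba, -0.38 for Ncf4 and -0.27 for Rac2. With the correction the interval also lies away from 0 for Ncf4 (-0.50 to -0.17) and Cybc1 (0.02 to 0.38).

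Ncf1 encodes p47phox, the organiser that is phosphorylated on activation and carries the cytosolic subunits to p22phox. It lies on chromosome 5 (134220053 to 134229625, minus strand, ENSMUSG00000015950). Its WT libraries had 19.99, 20.3 and 19.2 FPKM, and those of PGRN KO 18.6, 16.7 and 19.4. The genotypes overlapped through PGRN KO replicate 6. The log2 fold change of -0.11 (SE 0.09, 95% interval -0.33 to 0.10) did not pass the test (adjusted p = 0.380), and without replicate 6 it was -0.16 (adjusted p = 0.0989). None of 19 alternatives passed. Part of the Ncf1 model, 8.84% of its stretches of 31 bases, is also found in Gtf2ird2, an overlapping gene on the opposite strand with a mean of 0.344 FPKM.

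Ncf4 encodes p40phox, which binds a phosphoinositide of the phagosome membrane and sustains the oxidase there. It lies on chromosome 15 (78244801 to 78262580, plus strand, ENSMUSG00000071715). The WT libraries had 56.4, 58.2 and 55.4 FPKM of Ncf4. In PGRN KO it was at 42.9 and 43.4 FPKM in replicates 4 and 5 and at 58.3 FPKM in replicate 6. Replicates 4 and 5 were thus below all WT libraries, and replicate 6 was above them. With all libraries the log2 fold change of -0.24 (SE 0.13, 95% interval -0.56 to 0.07) did not pass the test (adjusted p = 0.216). Without replicate 6 it was -0.38 ± 0.05 (95% interval -0.50 to -0.27, adjusted p = 0.00230). With all 6 libraries kept and each corrected for gene length by loess, it was -0.33 (adjusted p = 0.0125). The ratio of Ncf4 to Ncf1 FPKM was 2.82, 2.87 and 2.89 in WT and 2.30, 2.60 and 3.004 in PGRN KO, with overlapping genotypes (log2 difference -0.13, exact permutation p = 0.4, adjusted p = 0.4). That difference was -0.04 without PGRN KO replicate 4, -0.23 without replicate 6 and -0.23 after the correction for gene length.

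Rac2 encodes the Rac GTPase of blood cells and Rac1 the form found in nearly all cells, and either can switch the oxidase on. Rac2 lies on chromosome 15 (78559167 to 78572783, minus strand, ENSMUSG00000033220), 296.6 kb from Ncf4. Its levels were 95.4, 98.3 and 94.3 FPKM for WT against 79.5, 78.8 and 101 for PGRN KO. As with Ncf4, PGRN KO replicates 4 and 5 were below all WT libraries and replicate 6 above them, and the levels of both genes correlated at 0.993 over the 6 libraries, as a description. With all libraries the log2 fold change of -0.16 (SE 0.12, 95% interval -0.44 to 0.12) did not pass the test (adjusted p = 0.356). Without replicate 6 it was -0.27 ± 0.05 (95% interval -0.39 to -0.16, adjusted p = 0.00593).

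Rac1 lies on chromosome 5 (143503634 to 143528036, minus strand, ENSMUSG00000001847). Its levels were 68.3, 71.1 and 63.7 FPKM for WT against 65.1, 65.0 and 73.9 for PGRN KO. The log2 fold change of 0.01 (95% interval -0.22 to 0.23, adjusted p = 0.973) was the nearest to 0 among the members, and its sign turned in 4 of 19 alternatives. Of the stretches of 31 bases in the Rac1 model, 50.71% are shared with Daglb, an overlapping gene on the opposite strand. The study does not state whether strand was kept, and the library kit is taken here as one that does not mark it. In that case reads there cannot be told apart. Daglb was listed at a mean of 0.536 FPKM.

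With both GTPases measured in the same libraries, their balance could be read without the library scaling. The ratio of Rac2 to Rac1 FPKM was 1.40, 1.38 and 1.48 in WT and 1.22, 1.21 and 1.37 in PGRN KO. Rac2 exceeded Rac1 in all 6 libraries, and every PGRN KO ratio was below every WT ratio, replicate 6 included. Among single tested genes, 48.8% did not overlap between genotypes. How reads in the stretch that Rac1 shares with Daglb were counted is not given. The FPKM of Rac1 may therefore be off, and which GTPase was more abundant is uncertain. The log2 difference was -0.17 (exact permutation p = 0.1, adjusted p = 0.2), and it was -0.22 without replicate 6 and -0.21 after the correction for gene length.

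**Figure D3:**
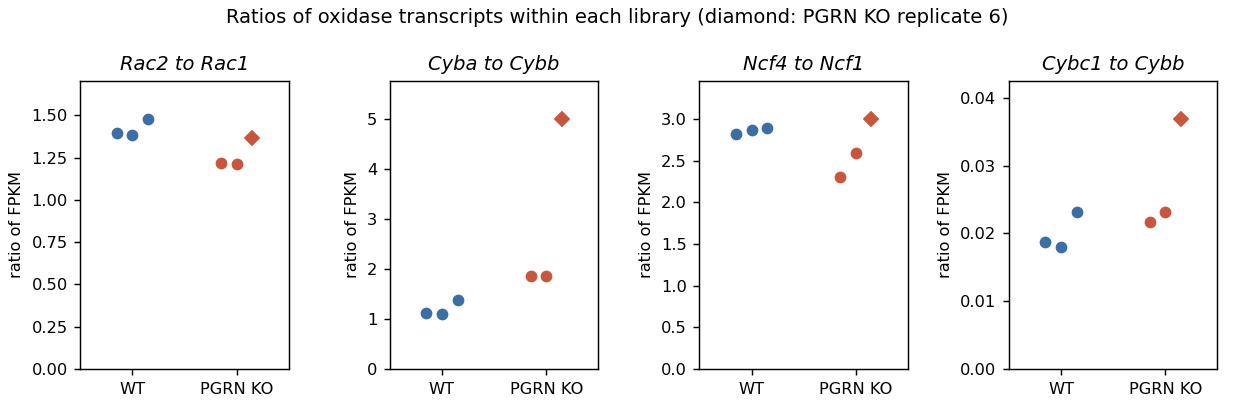
Ratios of FPKM between members within each library, each panel on its own axis from 0, for Rac2 to Rac1, Cyba to Cybb, Ncf4 to Ncf1 and Cybc1 to Cybb, with PGRN KO replicate 6 as a diamond. WT and PGRN KO do not overlap for Rac2 to Rac1 (1.38 to 1.48 against 1.21 to 1.37) or for Cyba to Cybb (1.10 to 1.39 against 1.86 to 5.01). Both differences had an adjusted p of 0.2 by exact permutation, and 48.8% of single tested genes did not overlap either.

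The departure of PGRN KO replicate 6 from replicates 4 and 5 went from highest for the member with the shortest gene model to lowest for that with the longest. Its log2 level minus the mean of PGRN KO replicates 4 and 5 was 0.88 for Cyba (1039 bases), 0.43 for Ncf4 (2020 bases) and 0.35 for Rac2 (3103 bases). It was 0.13 for Ncf1, 0.16 for Cybc1 and 0.18 for Rac1, whose models span 3663 to 4496 bases, and -0.55 for Cybb (5808 bases). Over all tested genes in 10 bins of length, the median of the same difference went from 0.44 at 943 to 1776 bases to -0.39 at 9218 bases and above. Cyba lay above and Cybb below the interquartile range of their bins. The correction for length took 0.30 from the log2 level of Cyba in replicate 6, and the difference of the Cyba to Cybb log2 ratio between genotypes was 0.95 after it. Replicates 4 and 5 alone were above WT for Cyba by 0.61 on the log2 scale, so that the higher Cyba level was present without the library that stood apart.

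**Figure D4:**
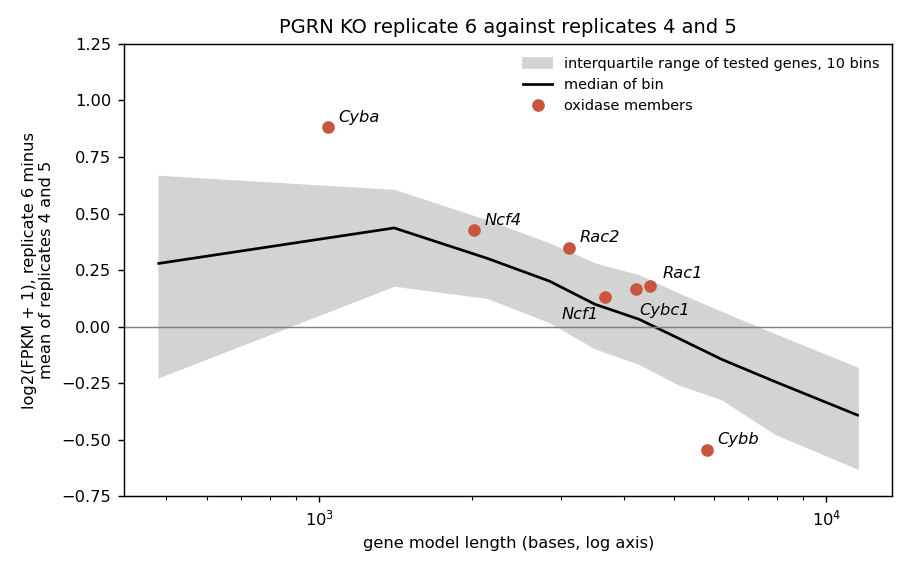
Log2(FPKM + 1) in PGRN KO replicate 6 minus the mean of replicates 4 and 5, against gene model length in bases on a log axis. The line gives the median and the band the interquartile range of tested genes in 10 bins of length, and points are the members, from 0.88 for Cyba to -0.55 for Cybb.

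Genes whose pattern over the 6 libraries was most like that of Cybb were Csnk1a1 (Pearson correlation 0.999), Ptbp3 (0.993) and Ccdc50 (0.993), among 3056 genes with a mean of at least 10 FPKM. For Ncf1 they were Prpf6, Dnajb6 and Ccl7 (0.985, 0.985 and 0.984). With 6 libraries such values are common: 75 of these genes reached 0.95 with Cybb and 13 with Ncf1. Csnk1a1 shared with Cybb its lowest value, 23.5 FPKM against 27.6 to 30.7 FPKM in the others, in PGRN KO replicate 6. Among the members, Cyba and Cybc1 correlated at 0.963 over all 6 libraries, and Cybb was opposed to both (-0.836 and -0.841). In PGRN KO replicate 6 Cybb was lowest (378 FPKM), and Cyba and Cybc1 were highest (1893 and 14.0 FPKM). These correlations were not computed without that library.

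Transcripts of other NADPH oxidases were at or near 0. Of 9 genes for the other enzymes of the family and their partners (Nox1, Nox3, Nox4, Duox1, Duox2, Duoxa1, Duoxa2, Noxa1 and Noxo1), 0 passed the filter, and the highest group mean was 0.0436 FPKM, for Noxo1.

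Of 26 genes that activate or restrain the phagocyte oxidase, 23 were tested, 2 were higher and 8 lower in PGRN KO, and 13 did not pass. Their median log2 fold change was -0.20, and without replicate 6 there were 3 higher and 11 lower with a median of -0.21. Over all tested genes 10.4% were called higher and 13.8% lower, and without replicate 6 16.2% and 25.1%. These shares apply to the lists below as well, and nothing about a list as a group is read from its count. Vav1, a guanine nucleotide exchange factor that loads Rac with GTP, fell from 55.7 ± 2.10 FPKM to 25.9 ± 1.81 (SD, n = 3 each, log2 fold change -1.08, adjusted p = 0.00119). WT libraries had 55.4, 53.8 and 58.0 FPKM against 25.2, 24.6 and 28.0 in PGRN KO, so that the groups were far apart in every library. Vav3 (-0.56, adjusted p = 0.0405) and Prex1 (-0.66, adjusted p = 0.0184), further exchange factors for Rac, fell too. Prkcb, a protein kinase C that phosphorylates p47phox, fell by 0.70 on the log2 scale (adjusted p = 0.0196).

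S100a8, which with S100a9 forms a calcium-binding complex that aids the oxidase in neutrophils, fell from 49.98 ± 2.46 to 23.3 ± 2.20 FPKM (log2 fold change -1.07, adjusted p = 0.00142), while S100a9 had means of 0.0432 and 0.182 FPKM and was not tested. Pik3cd, the catalytic subunit of a leukocyte phosphoinositide kinase, went the other way. WT libraries had 4.54, 4.58 and 4.38 FPKM against 8.40, 6.93 and 7.98 in PGRN KO (log2 fold change 0.67, adjusted p = 0.00509). The calls of Vav1, S100a8 and Pik3cd held when any 1 library was left out. Those of Prkcb, Prex1 and Vav3 were lost without any 1 of the WT replicates, and that of Vav3 also without PGRN KO replicate 5.

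Of 9 genes that supply NADPH, 8 were tested, 1 was called higher and 0 lower by limma and by voom, and 1 was lower at an unadjusted p under 0.05. Among all tested genes limma called 10.4% higher and 13.8% lower. Their median log2 fold change was 0.10, and it was 0.01 without replicate 6, where 1 was higher and 1 lower. Rpe, an epimerase of the pentose phosphate pathway, rose from 11.7 ± 0.57 to 15.9 ± 0.76 FPKM (log2 fold change 0.41, adjusted p = 0.0166), a call lost without any 1 WT replicate or PGRN KO replicate 4. G6pdx, which makes NADPH at the entry of that pathway, averaged 20.5 ± 1.29 FPKM for WT against 20.3 ± 0.88 for PGRN KO, with a log2 fold change of -0.02 (adjusted p = 0.892).

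Of 17 genes that remove superoxide and peroxides, 16 were tested, 4 were higher and 0 lower, with a median of 0.18. The shares called over all tested genes were 24.2% in either direction and 10.4% as higher. Beside the 0 called lower by limma, 2 were lower at an unadjusted p under 0.05, and voom called 1, Sod2, the mitochondrial superoxide dismutase, named after its value was seen. Without replicate 6 there were 5 higher and 4 lower, with a median of 0.10. Gpx3, a secreted glutathione peroxidase, rose most, from 1.71, 1.38 and 1.71 FPKM in the WT libraries to 6.34, 6.73 and 8.52 without progranulin (log2 fold change 1.65, adjusted p = 0.00119). Gpx4, which reduces lipid peroxides, rose from 44.1 ± 0.86 to 73.8 ± 20.3 FPKM (0.70, adjusted p = 0.0315), with replicate 6 at 97.3 FPKM and replicates 4 and 5 at 62.0 and 62.3 FPKM. The peroxiredoxins Prdx4 (0.53, adjusted p = 0.0446) and Prdx6 (0.51, adjusted p = 0.0324) rose as well. The Gpx3 call held when any 1 library was left out, whereas those of Gpx4, Prdx4 and Prdx6 were lost without any 1 WT replicate, and those of Prdx4 and Prdx6 also without PGRN KO replicate 4 and that of Prdx4 without replicate 5.

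Of the 13 transcription factors reported here that are known to act on oxidase genes in myeloid cells, 12 were tested, and 4 were lower, with a median of -0.35. The share called lower over all tested genes was 13.8%. None of the 12 was called higher by limma or by voom, and 1 was higher at an unadjusted p under 0.05. Without replicate 6 there were 1 higher and 7 lower. Cebpa, a factor of myeloid differentiation, fell from 9.14, 7.95 and 11.7 FPKM in the WT libraries to 3.83, 3.59 and 4.59 without progranulin (log2 fold change -1.07, adjusted p = 0.00480). Ets2 (-0.61, adjusted p = 0.00569), Irf8 (-0.57, adjusted p = 0.0293) and Nfkb1 (-0.51, adjusted p = 0.0193) fell. Of these 4, Irf8 and Nfkb1 lost the call without any 1 WT replicate, and Cebpa and Ets2 kept it whichever library was left out. Spi1, which encodes PU.1, averaged 75.03 ± 5.90 FPKM for WT against 55.0 ± 12.8 for PGRN KO and did not pass with all libraries (-0.46, adjusted p = 0.0834), and passed without replicate 6 (-0.64, adjusted p = 0.00246).

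**Figure D5:**
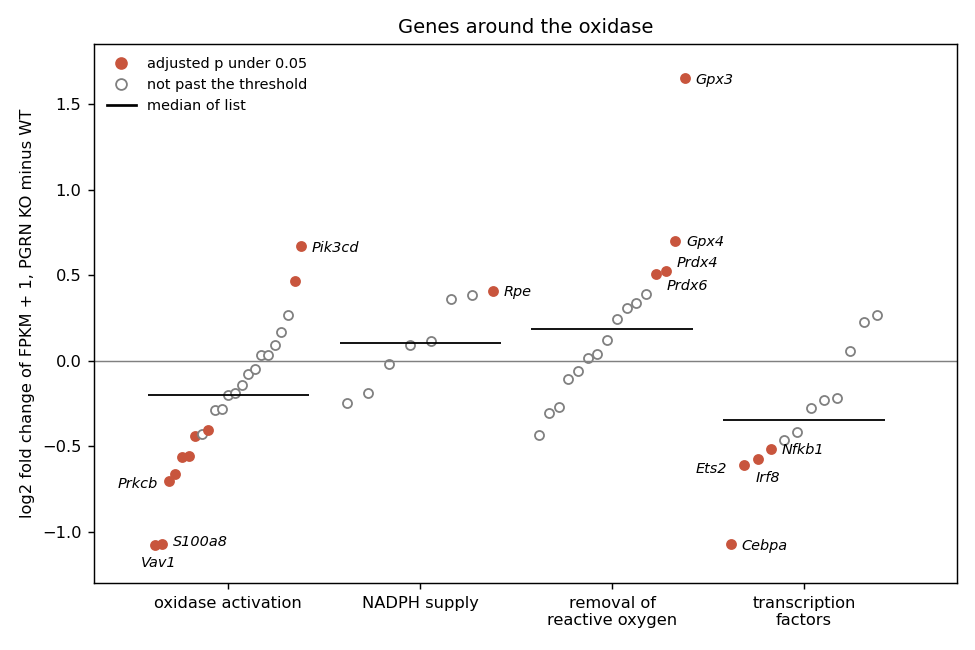
Log2 fold change of FPKM + 1 in PGRN KO against WT for the tested genes of 4 lists around the oxidase, each point 1 gene, filled where the adjusted p is under 0.05, with the median of each list as a line. The medians are -0.20 for oxidase activation, 0.10 for NADPH supply (0.01 without PGRN KO replicate 6), 0.18 for removal of reactive oxygen and -0.35 for transcription factors, beside -0.03 over all tested genes.

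Since neutrophils, B cells and other leukocytes also carry oxidase transcripts, markers of other cells were summed. In a bulk library, fewer cells of a type and less RNA per cell cannot be told apart. The 12 neutrophil markers had sums of 80.2 to 87.2 FPKM in WT libraries against 53.0 to 54.5 in PGRN KO, and S100a8 was the 1 called marker of the 3 tested. Means in WT and PGRN KO were 49.98 and 23.3 FPKM for S100a8, 12.9 and 10.2 for Csf3r, and 20.2 and 19.5 for Mmp8. The lower sum thus came mostly from S100a8. The defining neutrophil genes Ly6g, Elane and Cxcr2 were at 0 in all 6 libraries, and Mpo was at 0 in PGRN KO and near 0 in WT. The 5 B cell markers had sums of 4.70 to 6.06 FPKM in WT libraries against 18.7 to 24.0 in PGRN KO, and all 3 tested (Cd79a, Cd79b and Ighm) were higher. The 5 mast cell markers had sums of 2.23 to 3.19 FPKM in WT libraries against 9.31 to 13.9 in PGRN KO, and both tested (Cma1 and Tpsb2) were higher, while Kit, below the filter, had means of 0.345 FPKM for WT against 0.210 for PGRN KO. None of the T cell, eosinophil or dendritic cell markers was abundant enough to be tested. The 4 T cell markers had sums of 0.701 to 0.831 FPKM in WT libraries against 1.38 to 1.602 in PGRN KO, and the 3 dendritic cell markers 1.77 to 2.23 FPKM against 1.08 to 1.36, both without overlap. The 4 eosinophil markers reached at most 0.249 FPKM. Summed B cell, mast cell and T cell markers were thus higher in PGRN KO, as Cyba was, and summed neutrophil and dendritic cell markers lower, and their part in the levels of the members was not tested.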

How the data were processed

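Libraries were made from total RNA with the NEBNext Ultra kit. The authors aligned reads to the mouse genome, counted fragments per gene and deposited FPKM, scaled to gene model length and library size. The authors' processing notes name HISAT2 2.0.5, featureCounts 1.5.0-p3, DESeq2 1.20.0 and the builds mm10 and GRCm38, and the methods of the study name other counting software and versions. Of 54532 gene identifiers, 99.77% were found in GENCODE M21 (GRCm38), and 98.26% had the same position, as did all 7 members. FPKM times gene length gave whole fragments within a tolerance of 0.001 for 100% of values. The library size used by the authors was 0.925 to 1.09 times the sum of these fragments. Pairs of libraries differed beyond sampling noise (chi-square per degree of freedom at least 5.8).

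Values were analysed as log2(FPKM + 1), which understates changes of low genes. Genes with a mean of at least 1 FPKM were fitted with limma 3.58.1 in R 4.3.3 (genotype as the only term, variance trend, two-sided, Benjamini-Hochberg over 8882 genes, threshold 0.05). The authors used DESeq2 on counts. Ratios between members were compared by exact permutation over libraries. The members, lists and tests were chosen with earlier results of these data known. Named genes were the members, Grn, up to 6 called genes per list by absolute log2 fold change, the 3 genes most correlated with Cybb and with Ncf1 (predicted gene models left out) and, of other markers, the defining ones. Spi1, G6pdx, S100a9 and Sod2 were named after their values were seen. Another subunit of the complex and 1 listed gene are not reported here and enter no count of the members or lists. In a test on simulated data for this comparison (8882 genes, 10 draws, 200 genes changed by 1 on the log2 scale, dispersion 0.02), 86.8% of changed genes were called and 7.66% of calls were false. The draws had the same dispersion in all libraries, with no outlying library and no trend with gene length. These rates therefore check the procedure and do not give the error rates of the real comparison. Promoters were taken from RefSeq (GRCm38.p6). Whole fragments give the depth, but PCR copies cannot be told from separate molecules without identifiers. The alternatives were pseudocounts of 0.1 and 0.01, other filters and scalings, no trend, sample weights, voom, a loess correction for gene length (span 0.5) and leaving out each library. A correction for length and GC content was added after seeing the data.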

Additional observations from a re-analysis of the deposited data

How the results depend on the processing

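No paired analysis was possible because the genotypes share no replicate numbers. The log2 fold changes of Cybb, Ncf1 and Cybc1 kept their direction and did not pass in any of 19 alternatives, and the 4 ratios between members kept their direction in all 7 settings computed for them, with differences from -0.227 to -0.035 for Ncf4 to Ncf1 and from 0.178 to 0.562 for Cybc1 to Cybb. Cyba was 0.899 (adjusted p = 0.118 by limma) without the filter, where 22912 genes were adjusted together, and 0.606 to 1.061 with 1 library left out. Ncf4 passed with sample weights (-0.372), with the length correction (-0.332), with that correction and without PGRN KO replicate 6 (-0.376) and with the correction for length and GC content (-0.367), and it was -0.385 to -0.168 with 1 library left out. Rac2 passed with sample weights (-0.260), with the length correction and without replicate 6 (-0.245), and it was -0.275 to -0.097 with 1 library left out. Rac1 turned negative with sample weights (-0.058), with the length correction and without replicate 6 (-0.028), and when WT replicate 3 (-0.038) or PGRN KO replicate 6 (-0.055) was left out, within a range of -0.055 to 0.041 over libraries left out. The cause of these changes was not tested.

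Against 2151 genes in the reported analysis, limma called 1366 without the filter, 4225 with sample weights, which gave PGRN KO replicate 6 a weight of 0.0899, 3659 with the length correction and without replicate 6, and 713 to 3668 with 1 library left out (855 without WT replicate 2, 883 without WT replicate 3, 1390 without PGRN KO replicate 4). Against 1 member, limma called 0 without the filter, 3 with sample weights, 2 with the length correction, 3 with it and without replicate 6, 2 with length and GC content, and 0 to 3 with 1 library left out. At each count of 0, 1 member had an unadjusted p under 0.05, and voom with all libraries called 1. Over all tested genes, the length correction called 2821, and that for length and GC content 2941. The median of the activation list, -0.197, was -0.287 at pseudocounts of 0.1 and 0.01, -0.283 at a mean of at least 5 FPKM, -0.156 on the TPM scale and with the length correction, -0.142 with the sum of fragments, -0.288 with voom, and -0.297 to -0.194 with 1 library left out. That of NADPH supply was 0.237 at a mean of at least 5 FPKM, and 0.012 to 0.179 with 1 library left out. That of transcription factors was -0.277 without the filter, -0.259 with the sum of fragments and -0.380 to -0.312 with 1 library left out. Of 19 list genes called, 6 remained without each WT replicate in turn, 14, 16 and 19 without PGRN KO replicates 4, 5 and 6, 9 without the filter and 11 on the TPM scale, and none of the 19 changed sign in any alternative in which it was fitted.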
